A study of Mus musculus with 2 samples.

Results

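Cone photoreceptors detect light with their own copies of the proteins that rods use, and 10 genes of that cone set were followed through a single-cell RNA data set of mouse retina: the opsins Opn1sw and Opn1mw, the transducin subunits Gnat2, Gnb3 and Gngt2, the phosphodiesterase subunits Pde6c and Pde6h, the channel subunits Cnga3 and Cngb3, and cone arrestin, Arr3. They were taken by name from 31053 measured genes, and each was represented once. A barcode was counted as a cone-gene barcode where at least 3 of the 10 genes had a unique molecular identifier (UMI), which was true of 11 of 834 barcodes, or 1.32% (exact Clopper-Pearson 95% interval 0.660 to 2.35%). A barcode was counted as a rod where Sag, Pdc, Gngt1 and Gnat1 together held at least 1% of its UMIs, which was true of 682 barcodes. These definitions overlapped, since 10 of the 11 cone-gene barcodes also met the rod rule, so rods are given below without them (672 barcodes) unless all 682 are named.

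The study electroporated the retinas of newborn wild-type mice with the pCIG2 plasmid, which expresses EGFP from an internal ribosome entry site, either empty (control) or with lamin A (Lmna) or the lamin B receptor (Lbr). Viable EGFP-positive cells were sorted from the adult retinas, stained by condition with 1 of 3 lipid-anchored sample tags and pooled in 1 run of the 10x Genomics Chromium platform, and the labels name the cell type as rods. The sources used here do not give how many animals stand behind a tag. The labels do not tie a tag to a condition, so the tags are numbered as the labels number them: GGAGAAGA for tag 1, CCACAATG for tag 2 and TGAGACCT for tag 3.

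Of the 834 barcodes, 645 were also in the tag library, where tag 1 held 264, tag 2 held 316 and tag 3 held 41, and the remainder were 22 tag doublets, 1 negative and 1 unmapped. The other 189 had no tag call, and they were shallower, with a median of 1143 UMIs against 2781, 2575 and 2568 in tags 1 to 3. They also had more mitochondrial RNA, with a median of 39.0% of UMIs against 11.9, 18.3 and 13.6%. With 1 pool of cells per tag there is no replicate spread to test against, so no p-values are given, and all intervals cover counting error only.

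In a cone, light changes an opsin, which activates the G protein transducin, transducin activates a phosphodiesterase that breaks down cyclic GMP, and the fall of cyclic GMP closes a cation channel in the outer segment. Arrestin then binds the opsin and ends its activity. Rods run a like cascade with mostly separate subunits, and cones are born in the embryo, whereas rods are still being made after birth. Mouse cones can carry the short-wave opsin, the middle-wave opsin or both.

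Promoter sequences from RefSeq (build GRCm38.p6, 250 bases before to 50 after a gene's start) were at hand for 6 of the 10 genes. They were searched on both strands for TAATC, a core of the sites bound by the photoreceptor homeodomain factors Crx and Otx2, and for the longer TAATCC, which holds TAATC within it. This search was chosen after the sequences had been seen. Arr3 had 3 matches of TAATC, and Opn1sw and Gnat2 had 1 each, while Cnga3 (in 2 windows), Pde6h and Opn1mw had none in these windows. TAATC was in 22.0% of 32851 RefSeq promoters, at least 3 matches were in 0.658%, and TAATCC, found only in Gnat2 among the 6 genes, was in 7.06%. The 3 promoters with a match are shown because both factors were also measured in the cone-gene barcodes below. The Arr3 window lies at chrX:100605247-100605546 on the plus strand, that of Opn1sw at chr6:29380464-29380763 on the minus strand and that of Gnat2 at chr3:108092816-108093115 on the plus strand, and capitals mark TAATC or, on the other strand, GATTA.
Arr3: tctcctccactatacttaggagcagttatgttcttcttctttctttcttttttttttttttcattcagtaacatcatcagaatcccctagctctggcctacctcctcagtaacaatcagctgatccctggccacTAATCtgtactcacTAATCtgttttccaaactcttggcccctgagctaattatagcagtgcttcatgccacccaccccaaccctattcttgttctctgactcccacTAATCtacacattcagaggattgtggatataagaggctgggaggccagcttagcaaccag
Opn1sw: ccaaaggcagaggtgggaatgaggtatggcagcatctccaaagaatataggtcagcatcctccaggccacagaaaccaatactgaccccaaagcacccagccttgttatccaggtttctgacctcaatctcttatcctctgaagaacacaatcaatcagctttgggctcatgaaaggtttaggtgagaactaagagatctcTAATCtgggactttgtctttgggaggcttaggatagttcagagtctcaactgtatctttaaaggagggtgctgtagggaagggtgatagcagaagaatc
Gnat2: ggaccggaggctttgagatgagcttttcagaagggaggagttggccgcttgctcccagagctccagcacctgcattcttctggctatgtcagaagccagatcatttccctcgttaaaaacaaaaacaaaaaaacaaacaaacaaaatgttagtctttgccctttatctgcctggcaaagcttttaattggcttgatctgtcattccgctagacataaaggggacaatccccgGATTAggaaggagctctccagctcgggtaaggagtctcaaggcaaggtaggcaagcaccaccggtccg

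Most barcodes held few or none of the 10 genes, and those that held several held many. No cone gene had a UMI in 651 barcodes, and 1 was seen in 155, of which 132 had Gnb3. A further 17 barcodes held 2 of the genes. Of the 11 cone-gene barcodes, 1 held 3 of the genes, none held 4, 3 held 5, 3 held 6, 1 held 7 and 3 held 9. Among the 17 barcodes just under the limit, 8 held Cngb3 with Gnb3, and all 8 were in the set with bipolar markers described below. In the cone-gene barcodes, the 10 genes together took 0.250 to 7.60% of all UMIs, with a median of 4.70%. These genes chose the barcodes, so their values there are a description.

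The cone opsins were seen in 9 of the 11 cone-gene barcodes. Opn1mw, the middle-wave opsin, was in 9 of them, with 3 to 113 UMIs and 327 in all. Opn1sw, the short-wave opsin, was in 4, with 181, 105, 35 and 7 UMIs. Each barcode with Opn1sw also held Opn1mw, so 4 held both opsins, 5 held Opn1mw alone, none held Opn1sw alone and 2 held neither. Within the 4 that held both, Opn1sw made up 61.8, 5.83, 89.7 and 92.1% of the opsin UMIs, so 3 had mostly Opn1sw and the barcode of tag 3 had mostly Opn1mw. At its 3′ end Opn1sw shares 397 exonic bases with Calu on the opposite strand, and Calu had no UMI in any cone-gene barcode.

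The subunits of cone transducin, which couples the opsin to the phosphodiesterase, differed in how many barcodes held them. Gngt2, the gamma subunit, was in 10 of the 11 with 1 to 126 UMIs. Gnb3, the beta subunit, was in 9 with 1 to 37 UMIs. Gnat2, the alpha subunit, was in 8 with 1 to 38 UMIs, and 5 of 11 barcodes still held it after each barcode was thinned to 1000 UMIs, against 9 for Gngt2 and 8 for Gnb3. The counts are of 3′ ends of transcripts and were not scaled, so the levels of different genes are not compared.

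Pde6h, the inhibitory subunit of the cone phosphodiesterase, was the only 1 of the 10 genes with a UMI in all 11 cone-gene barcodes, with 2 to 168 UMIs in each and 520 in all. Pde6c, the catalytic subunit, was in 5, with 7, 6, 5, 2 and 1 UMIs. It was seen in no other barcode of the 834.

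Of the cone channel genes, Cngb3, the channel's beta subunit, was in 4 of the 11 with 18, 5, 2 and 1 UMIs. Cnga3, the alpha subunit, was in 1, the barcode of tag 3, with 7 UMIs. Arr3, cone arrestin, was in 9 barcodes with 4 to 45 UMIs.

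**Figure D1:**
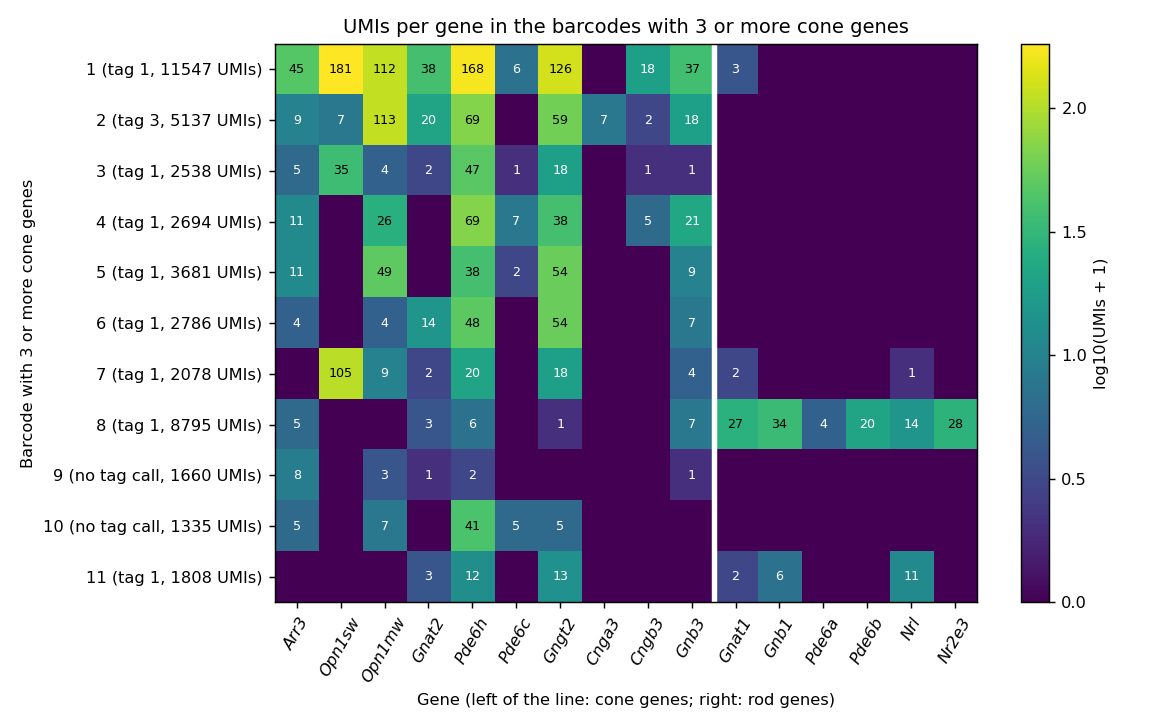
UMIs of the 10 cone genes (left of the white line) and of 6 rod genes (right) in each of the 11 cone-gene barcodes, with the tag and the total UMIs of the barcode on the vertical axis; colour is log10(UMIs + 1), numbers are UMIs and empty cells are 0. The rod genes are at 0 in 7 barcodes, and barcode 8 holds all 6 of them, with 27 Gnat1 and 34 Gnb1 UMIs.

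The rod genes separated the 11 barcodes further. Nrl and Nr2e3, the transcription factors of rod fate, had no UMI in 8 of them, and the other 3 held 1, 11 and 14 Nrl UMIs. The barcode with 14 had 8795 UMIs in all, held all 9 rod counterparts of the cone genes that are described here, and had the lowest share of cone-gene UMIs, 0.250%. For comparison, Nrl was in 74.4% of the 672 rods and Nr2e3 in 64.0%. Scrublet and the tag calls marked none of the 11 as a doublet. They had a median of 2694 UMIs (1335 to 11547) against 2443 in the rods, 5 passed the limits on genes and mitochondrial UMIs that the study states, and 6 were over its mitochondrial limit.

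Genes other than the 10 were then compared between the 11 cone-gene barcodes and the 672 rods. The background was high. Of 911 genes seen in at least 3 of the 11, 43.4% had at least a 2-fold higher share of barcodes with a UMI than in the rods. These were 3.29% of all 12016 genes seen in either set. A gene counted here had to be in at least 3 of the 11, so any such gene that was rare in the rods met the criterion. Of 368 genes common enough to be seen lower, 7.07% had at least a 2-fold lower share. Of the 6 rod counterparts that the rod rule did not use, 5 had at least a 2-fold lower share: Gnb1 (2 of 11), Cnga1 (4), and Pde6a, Pde6b and Cngb1 (1 each). Gnb1, the beta subunit of rod transducin, was in 96.0% of the rods, and Cnga1, a subunit of the rod channel, in 86.5%.

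The other of the 6, Pde6g, the inhibitory subunit of the rod phosphodiesterase, was in 10 of the 11 and in 97.9% of the rods, at 7672 against 12774 CPM (UMIs of the gene per 1000000 UMIs of the set). Sag, Gngt1 and Gnat1 are genes of the rod rule, which chose the 672 rods, so their values are a description. Sag, rod arrestin, was in all 11 (8761 against 13595 CPM), Gngt1, the gamma subunit of rod transducin, was in 10 (7672 against 16052 CPM), and Gnat1, its alpha subunit, was in 4, against 95.2% of the rods. With Sag and Gngt1 this frequent, 10 of the 11 cone-gene barcodes met the rod rule.

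Of 10 cone-associated genes that the rule did not use, 4 were in at least 3 cone-gene barcodes with at least a 2-fold higher share than in the rods. Kcne2, an accessory subunit of potassium channels, was in 7 of 11 and in none of the 672 rods, which allows a share of up to 0.446%. Cd59a, an inhibitor of complement, was in 9 against 24.4% of the rods. Thrb, a thyroid hormone receptor needed for middle-wave opsin, was in 3 against 4.32%, and Lbh was in 3 against 7.89%. Both were at the minimum of 3 barcodes, where any gene this rare in the rods meets the criterion. Slc24a2, the exchanger of the cone outer segment, Otop3 and Ccdc136 were each in 1 barcode, while Rxrg, Sall3 and Clca3a2 had no UMI in any. After thinning to 1000 UMIs, or without the 3 barcodes that held Nrl, 2 of the 10 met the criterion.

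Among 13 genes of both rods and cones, 9 were in at least 3 of the 11. By the same criterion 2 of these were higher (43.4% of all such genes were), while 1 of the 13 was lower. The others of the 9, from Rp1 in 72.2% of the rods to Rcvrn in 97.8%, were too common there to reach a 2-fold higher share. Nothing is therefore read from the count of 2. Pdc, among these common genes, is also a gene of the rod rule. Crx and Otx2, the homeodomain factors whose core motif was searched above, were in 7 and 4 of the 11 barcodes against 28.6 and 13.2% of the rods. Guca1b, a guanylate cyclase activator, was in 1 against 68.2%, whereas its paralog Guca1a was in 10 against 88.2%. Markers of other cells were mostly sparse. Of 12 bipolar markers, 2 were seen in the 11 barcodes, with a summed share of 0 to 0.241% of UMIs and 0 in 7 barcodes. Gng13 was in 4 against 2.83% of the rods, which met the criterion of a higher share, and Cabp5 was in 1 against 0.446%. Of the microglia markers, 0 of 6 were seen, and of the amacrine markers 1 of 6 (Pax6, in 1 barcode). Of the Müller glia markers, 5 of 8 were seen, led by Clu in 7 barcodes against 38.1% of the rods, with a summed share of 0 to 0.770%.

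The 10 genes most like the cone set were those with the largest difference in the share of barcodes with a UMI between the 11 cone-gene barcodes and the 672 rods. Tmsb10, which binds actin monomers, came first, in 10 of 11 and 2.53% of the rods. It was followed by Ndufaf5, an assembly factor of respiratory complex I (9 of 11 and 14.3%), Kcne2, and Sphkap, an anchoring protein of protein kinase A (7 of 11 and 0.298%). Cd59a, Tmem256, Ank2, Cisd1, Vps28 and Rheb completed the list, with 7 to 9 of 11 and 9.38 to 24.4%. These genes were chosen by this difference, so it is a description. Tmsb10, Kcne2 and Sphkap were also in 44, 21 and 20 of 47 barcodes with bipolar markers, and Cd59a and Ndufaf5 were in 0 and 1 of these.

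**Figure D2:**
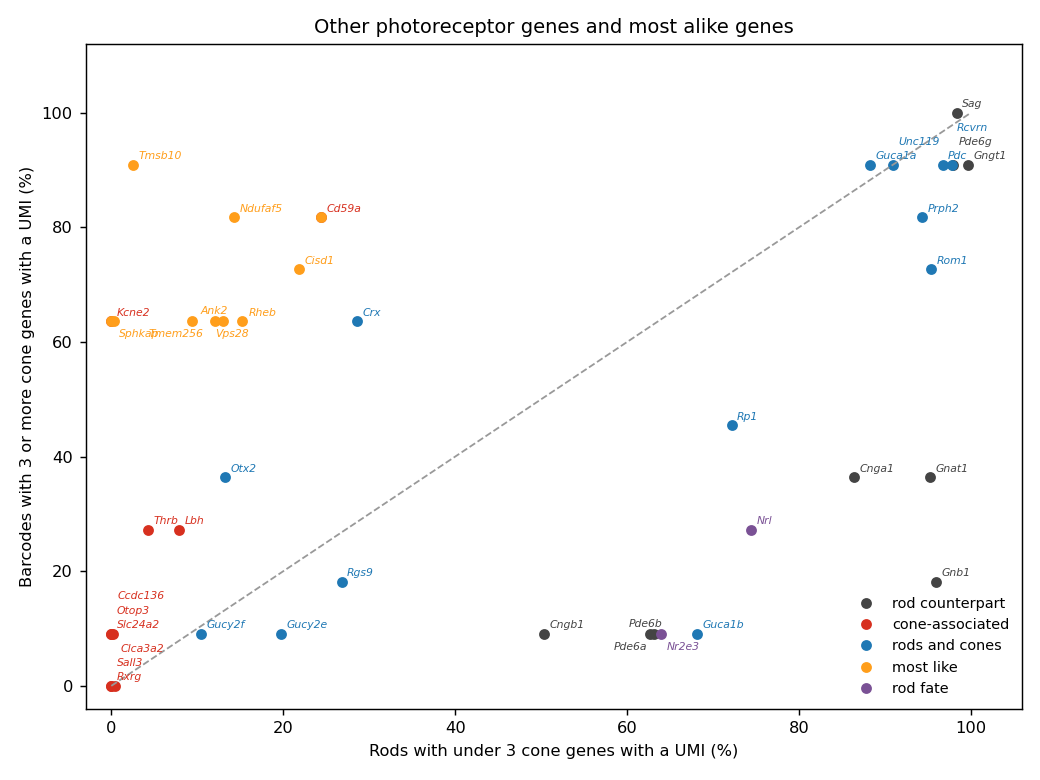
Percent of the 672 rods with a UMI (horizontal) and percent of the 11 cone-gene barcodes with a UMI (vertical) for photoreceptor genes outside the 10 cone genes and for the 10 most alike genes, coloured by list; the dashed line marks equal shares. Gnat1 and Gnb1 lie far below the line, Sag and Gngt1 lie near it, and Tmsb10 and Kcne2 lie at the upper left.

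In the 672 rods, Gnb3 stood apart from the other 9 cone genes. It had a UMI in 108 rods, or 16.1% (13.4 to 19.1%), with 502 UMIs in all and at most 24 in 1 rod, and 80.6% of these rods held more than 1. The next were Gngt2 and Pde6h, each in 5 rods, or 0.744% (0.242 to 1.73%), then Arr3 in 3, Opn1sw in 2 and Cnga3 in 1. From Gngt2 down to Cnga3, neighbours in this order had overlapping intervals. Opn1mw, Gnat2, Pde6c and Cngb3 had no UMI in any rod, which allows a share of up to 0.446%.

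The shares in cells that should lack the genes were set beside these. In 36 barcodes with Müller markers (median 1069.5 UMIs), Gngt2 was in 4 and Pde6h in 2. These shares (11.1 and 5.56%) are above those of the rods, so neither is read as expressed in rods. For Gngt2 this baseline is mixed. At least 1% microglia markers were in 15 barcodes, 7 of them with Gngt2, against 11 and 5 in the microglia set. The others fell in the bipolar or Müller set. Arr3 and Opn1sw were in no barcode of the bipolar, Müller and microglia sets. Gnb3 was in none of these 36 barcodes, which allows up to 8.33%, and in none of 11 with microglia markers (median 3878 UMIs). After thinning to 1000 UMIs, Gnb3 was in 11.8% of 608 rods and in 0 of 20 Müller barcodes, whose exact upper bound of 16.8% is above the share in rods, and the microglia set allows up to 27.3%, so neither of these sets the rods apart.

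Nrl, which the rod rule did not use, was in 68 of the 108 rods with Gnb3 and in 432 of the 564 without it, at 1252 against 1959 CPM and at a median of 0.0539 against 0.154% of UMIs. The rods with Gnb3 were deeper, with a median of 2971.5 against 2365.5 UMIs, and lower in mitochondrial UMIs, at 12.3 against 16.9%. Trpm1 and Grm6, which mark ON bipolar cells, had no UMI in either group, and a UMI of any of the 12 bipolar markers was in 9 of 108 (8.33%) against 32 of 564 (5.67%). Of the 108 rods with Gnb3, 61 were of tag 1 and 22 of tag 2, tags that held 246 and 280 of all the rods. The part of tag, depth and mitochondrial RNA in the Nrl difference was not tested.

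Outside photoreceptors, 3 cone genes were seen in several barcodes with bipolar or microglia markers, and Cnga3 was in 1 of the bipolar set with 1 UMI. Gnb3 was in 36 of 47 barcodes with bipolar markers (76.6%, 62.0 to 87.7%), with 367 UMIs. Cngb3 was in 8 of these 47 (17.0%, 7.65 to 30.8%) with 32 UMIs, a level of 96.0 CPM against 590 in the cone-gene barcodes, and all 8 also held Gnb3. The bipolar set was deep, with a median of 7556 UMIs, and 7 of the 8 were among its 30 barcodes with at least 5000 UMIs. Cngb3 was still in 5 of 39 after thinning to 1000 UMIs, and in no other barcode outside the cone-gene barcodes.

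Gngt2 was in 5 of 11 barcodes with microglia markers (45.5%, 16.7 to 76.6%) with 22 UMIs, and in 3 of 9 after thinning. Gngt2 lies at chr11:95837216-95845734 on the plus strand (GENCODE M21, GRCm38) and shares 234 exonic bases with Abi3 on the opposite strand, away from the 3′ end of Gngt2, and 2 of the 5 barcodes also had Abi3. Opn1mw and Gnat2 were each seen in 1 further barcode with 5 and 4 UMIs, both without a tag call.

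**Figure D3:**
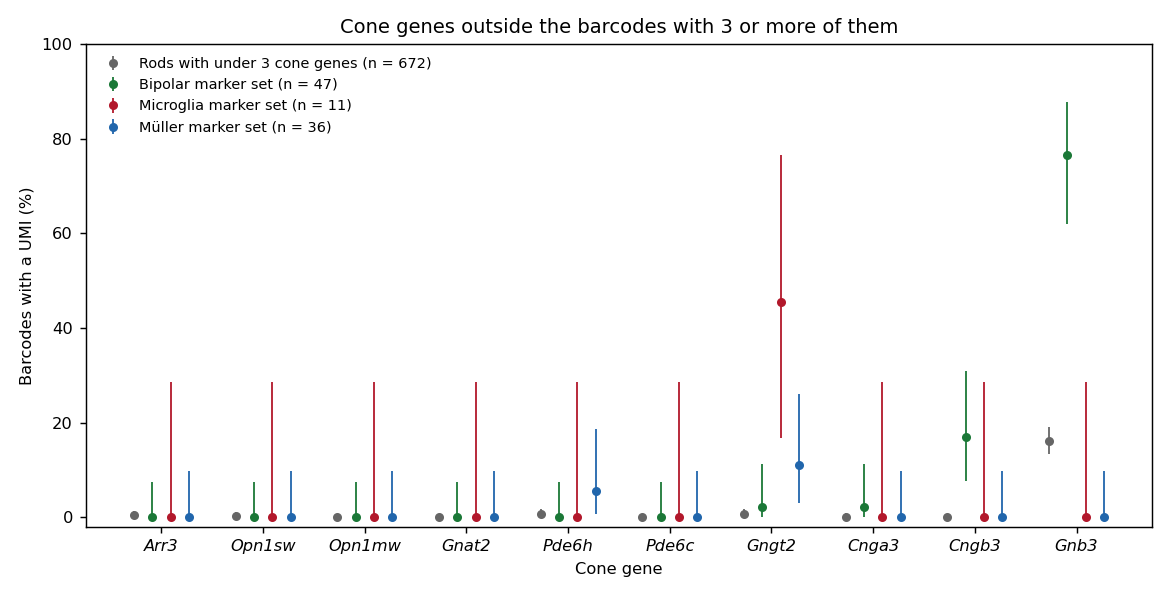
Percent of barcodes with a UMI of each cone gene (horizontal axis) in the 672 rods and in the barcodes with bipolar, microglia or Müller markers, none of them cone-gene barcodes; bars are exact 95% intervals. Gnb3 is high in the bipolar set and intermediate in rods, Cngb3 is seen in the bipolar set and Gngt2 in the microglia set.

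Across the tags, the cone-gene barcodes were unevenly spread. Tag 1 had 8 of 264 barcodes (3.03%, 1.32 to 5.88%), tag 2 had 0 of 316 (up to 0.949% by the limit of 3 counts, and up to 1.16% by the exact 95% interval), and tag 3 had 1 of 41 (2.44%, 0.0617 to 12.9%). The remaining 2 were among the 189 without a tag call (1.06%, 0.128 to 3.77%). The exact intervals of tags 1 and 2 were apart, but not without the 3 barcodes that held Nrl, all of tag 1 (5 of 264, 1.89%, 0.618 to 4.36%), nor under the stated limits (4 of 212, 0.516 to 4.76%, against 0 of 154, up to 2.37%). The intervals of tags 1 and 2 also overlapped with 4 or more cone genes required (7 of 264 in tag 1). The same held with Gnb3, Gngt2 and Pde6h left out of the count (6 of 264 in tag 1). Tag 2 had 0 of 316 in both settings. The interval of tag 3 overlapped those of tags 1 and 2. The part of the sort for EGFP in these shares was not tested, and the labels do not say which condition a tag marks. The study states that its electroporation at birth never reaches cones, which arise only in the embryo. The set with bipolar markers was spread the other way, with 0 barcodes in tag 1, 31 in tag 2 and 1 in tag 3.

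This spread fixed the summed counts of most cone genes in all 682 rods by the rule. In tag 1, Opn1mw had 204 UMIs, all from cone-gene barcodes, Pde6h 413 with 98.8% from them, Gngt2 331 with 97.3%, Opn1sw 327 with 98.2% and Arr3 91 with 89.0%. These barcodes held 3.76% of all UMIs of tag 1 rods. In tag 2, Opn1sw and Gngt2 had 2 UMIs each, and Arr3, Opn1mw, Gnat2, Pde6h, Pde6c, Cnga3 and Cngb3 had none.

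Of the 10 genes, 7 were expected to reach 20 UMIs in each tag, 6 of them only through their counts in tag 1, so that these 6 had to be lower in tag 2. All 7 were at least 2-fold lower (log2 of summed CPM with 0.5 UMIs added). Over all 4039 genes that reached the minimum, 15.9% were at least 2-fold lower and 2.97% at least 2-fold higher, and nothing is read from the count of 7. Of the 5 genes that could be compared between tags 3 and 1, Opn1mw and Gnb3 were at least 2-fold higher (4.04% of 668 genes were) and Opn1sw was at least 2-fold lower (12.3%). With the mean CPM over rods in place of the summed counts, Gnb3 was 0.80 higher on the log2 scale, under the 2-fold limit. The values of Opn1mw and Opn1sw in tag 3 came from 1 barcode, with 113 and 7 UMIs. Opn1mw met the minimum only with its counts in tag 3, and Opn1sw met it through its counts in tag 1. Nothing is read from the calls of Opn1mw and Opn1sw. Between tags 3 and 2 only Gnb3 met the minimum, and it did so only through its counts in tag 3. It was at least 2-fold higher (6.85% of 613 genes were, and 9.14% were lower), and nothing is read from this call. Of the 10 most alike genes, the cone-gene barcodes held 86.3% of the Tmsb10 UMIs of tag 1 rods (120 of 139), all 37 of Kcne2 and 11 of 12 of Sphkap, and 6.69 to 15.1% of the other 7.

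In rods without the cone-gene barcodes, only Gnb3 met the minimum, and only between tags 1 and 2 and between tags 1 and 3. It was in 61 of 246 rods in tag 1 (24.8%, 19.5 to 30.7%), in 22 of 280 in tag 2 (7.86%, 4.99 to 11.7%) and in 17 of 35 in tag 3 (48.6%, 31.4 to 66.0%). The 3 intervals did not overlap. Summed levels were 342 CPM (314 UMIs, exact Poisson 95% interval 305 to 382) in tag 1, 102 CPM (73 UMIs, 80.2 to 129) in tag 2 and 940 CPM (84 UMIs, 750 to 1164) in tag 3. The highest single rods held 21, 10 and 24 UMIs.

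On the log2 scale, the level of Gnb3 differed by -1.73 (-2.13 to -1.37) between tag 2 and tag 1, where 16.1% of 4034 genes were at least 2-fold lower and the median gene was at -0.18. It differed by 1.47 (1.10 to 1.81) between tag 3 and tag 1, where 4.03% of 620 genes were at least 2-fold higher, and by 3.20 (2.73 to 3.67) between tag 3 and tag 2, where 6.07% were. In all 682 rods the differences were -2.03, 1.37 and 3.40. Under the stated limits, also without cone-gene barcodes, the difference was -3.13 between tags 2 and 1 and 4.39 between tags 3 and 2. The expected Gnb3 count between tags 3 and 2 fell just under the minimum of 20 UMIs without the cone-gene barcodes. Gnb3 is therefore not among the genes behind the 6.07%.

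The order of the tags was kept in each split of the rods by depth and quality. Thinned to 1000 UMIs, Gnb3 was in 17.9, 4.40 and 41.2% of the rods of tags 1, 2 and 3. With rods split into 3 classes of equal size by depth, it was in 11 of 55, 5 of 73 and 4 of 13 of the shallowest (503 to 1978 UMIs). It was in 14.5, 7.20 and 54.5% of the middle class, and in 33.9, 9.76 and 63.6% of the deepest (2920 UMIs or more). Tag 3 had only 11 to 13 rods per class. The intervals of tags 1 and 3 overlapped in every class, and those of tags 1 and 2 in all but the deepest. Among rods that passed the stated limits, it was in 52 of 199 (26.1%), 9 of 136 (6.62%) and 14 of 24 (58.3%), with intervals that did not overlap. Among those over the mitochondrial limit it was in 15.0% of 40, 9.03% of 144 and 27.3% of 11, with overlapping intervals. All rods of tags 1, 2 and 3 had median mitochondrial shares of 12.1, 18.3 and 13.7% and summed bipolar markers of 224, 29.4 and 74.1 CPM, whose part in the result was not tested beyond these splits.

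**Figure D4:**
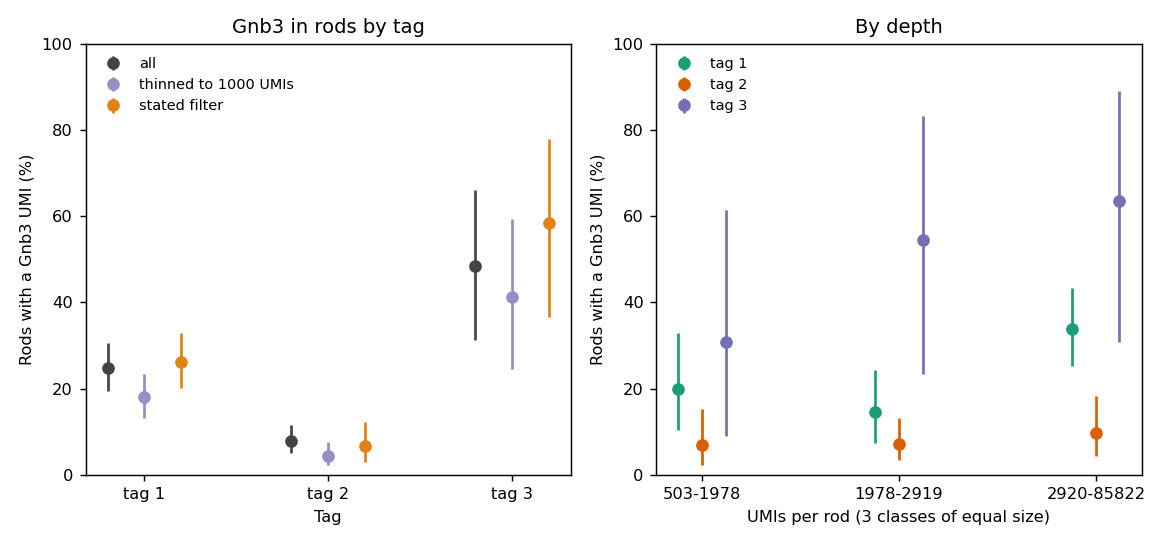
Percent of rods with a Gnb3 UMI, cone-gene barcodes left out, by tag for all rods, after thinning to 1000 UMIs and under the stated limits (left), and by tag within 3 classes of rods of equal size by total UMIs (right); bars are exact 95% intervals. Tag 2 is lowest and tag 3 highest in every split, from 4.40 to 9.76% in tag 2 and from 30.8 to 63.6% in tag 3, with overlapping bars of tags 1 and 3 in each depth class.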

How the data were processed

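The measurements were UMI counts per gene and cell barcode and counts per sample tag and barcode, from 1 pool. The deposited expression matrix holds raw counts that the authors made with Cell Ranger against mm10. The submitters' processing notes give version 6.1.2 and the matrix header gives 3.1.0, and no source used here names the annotation release. Tag calls were taken from the deposited table, whose probability of a single tag is a fraction made by the authors and was not used as a limit.

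All 834 barcodes were used, with a median of 2395 UMIs (500 to 85822). The limits the study states (200 to 2500 genes, at most 18% mitochondrial UMIs) were an alternative, which 409 barcodes passed. Doublets were called by Scrublet in scanpy 1.11.5 at an expected rate of 6% (2 barcodes) and kept in. A barcode was put in the bipolar, Müller or microglia set where those markers held at least 1% of UMIs and more than the other sets' markers (47, 36 and 11 barcodes, of which 1, 5 and 0 were also rods). Shares were also computed after thinning each barcode to 1000 UMIs, which left out 111 shallower barcodes, 0 of them cone-gene barcodes. Shares carry exact Clopper-Pearson, sums exact Poisson and ratios exact conditional 95% intervals, the limit for a count of 0 is 3 counts, and ratios add 0.5 UMIs to both sums. UMIs of a gene were grouped in barcodes, so the spread between pools may exceed these intervals. Ratios were computed over the whole table of genes, and the script was tested on simulated data.

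The genes named were the 10 cone genes, lists of rod counterparts (1 of which is not reported here), cone-associated and shared photoreceptor genes, markers of other cells, and the 10 genes with the largest difference in share. The members and lists were chosen with earlier results of these data known. Of the feature identifiers, 99.6% were in GENCODE M21, including the 10 cone genes. Promoters were from RefSeq, which matched 6 of them. The alternatives tried were the number of cone genes required, the rod limit, the stated limits, thinning, at least 2 UMIs per gene, stricter tag calls, mean CPM, 1 count per gene and barcode, the pseudocount, the minimum of expected UMIs, and leaving out cone-gene barcodes. Those chosen after seeing the data left out barcodes with an Nrl UMI, with over 50% mitochondrial UMIs or with over 10000 UMIs, or left out cone-gene barcodes under the stated limits.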

Additional observations from a re-analysis of the deposited data

Results flagged for a closer look

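Of the 10 cone genes, 8 were seen in the 189 barcodes without a tag call, which enter no comparison between tags, and 3 of these were in more than 3 such barcodes. Gnb3 was in 13 of them with 50 UMIs, 6 being rods and 4 in the bipolar set. Pde6h was in 8 with 68 UMIs, 4 being rods and 2 cone-gene barcodes (1 of them also a rod), and Gngt2 was in 5 with 29 UMIs, 1 being a cone-gene barcode that also met the rod rule. Arr3, Opn1mw, Gnat2, Pde6c and Cngb3 were in 1 to 3 each. These barcodes were shallower and richer in mitochondrial UMIs than those with a tag call.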

How the results depend on the processing

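The number of cone-gene barcodes was 11, and it was 28 with 2 or more cone genes required, 5 under the stated limits and 8 without barcodes that held Nrl; 2 or more genes also put 6 of 316 tag 2 barcodes (1.90%) in the class. The share of all 682 rods with Gnb3 was 17.0%, and it was 21.5% under the stated limits and 12.9% after thinning. For Gnb3 in these rods the log2 difference of tag 2 from tag 1 was -2.03, and it was -1.30 with 1 count per gene and barcode, -2.47 with mean CPM, -3.30 under the stated limits and -3.13 under these limits without cone-gene barcodes. That of tag 3 from tag 1 was 1.37 and fell to 0.80 with mean CPM. That of tag 3 from tag 2 was 3.40, and it was 2.60, 4.58 and 4.39 with 1 count, under the stated limits and under these without cone-gene barcodes. With no minimum of expected UMIs, tag 3 against tag 1 had 2 cone genes lower and 4 higher, and tag 3 against tag 2 had 8 of 8 higher. The added higher genes rested on 1 barcode of tag 3 except Gngt2, which had 3 of its 62 UMIs in another. The added lower gene, Pde6c, had 0 UMIs in tag 3 and 16 in tag 1, all from cone-gene barcodes. The cone-associated genes past the criterion fell from 4 to 2 after thinning and without barcodes that held Nrl. No direction reversed for the results recomputed here, and the cause of these shifts was not tested. No paired analysis was possible because each tag is 1 pool and no result comes from a test. The number of rods limits the genes not seen in them, where a count of 0 of 672 allows up to 0.446%.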
